A study of Mus musculus with 4 samples.

Results

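The complement genes examined here are 9 of the 32285 genes in the count matrices, namely C1qa, C1qb, C1qc, C4b, C3, C3ar1, Itgam, Serping1 and Cd59a, all found by their symbols. C4b was selected on its measured UMI counts, which in oligodendrocytes were higher at 6 than at 3 months in these same libraries, and the other members because of their place in the cascade. The oligodendrocyte values of C4b, comparisons that contain them, and the age differences of every member in oligodendrocytes are therefore given as a description, without a test. The genes were measured by single-nucleus RNA-seq in cerebral cortex from GCLC-KO mice. Libraries 3M-1 and 3M-2 came from mice aged 3 months, and libraries 6M-1 and 6M-2 from mice aged 6 months, each labelled as a separate mouse. Where 4 values follow each other, the 3-month pair comes first, and within each age library 1 comes before library 2. All of the mice carried the floxed Gclc allele of the strain C57BL/6NTac-Gclctm1a(EUCOMM)Wtsi/WtsiCnbc together with CaMKII-Cre, which is active mainly in excitatory neurons of the forebrain, and the background of the Cre line and of the crossed mice is not given in the sources used here. Gclc encodes the catalytic subunit of the enzyme that starts glutathione synthesis. No wild-type library was analysed, so every comparison is between ages, cell types or microglial states within the knockout. Pieces of cortex rich in rod-shaped microglia were taken by dissection, and DAPI-stained nuclei were sorted before capture, so the share of each cell type also depends on the dissection and the sort.

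Complement is a cascade of plasma and tissue proteins that tags surfaces for removal. In its classical branch C1q binds the target, the associated proteases cleave C4 and C2, and the convertase that forms then cleaves C3, whose fragments are read by receptors on phagocytes. In the brain C1q comes mainly from microglia, and the tagging of synapses by C1q and C3 for uptake through complement receptor 3 is its best-known role there, while C4 is made by astrocytes and by oligodendrocytes in injured or aged tissue. Serping1 (the C1 inhibitor) blocks the C1 proteases, and Cd59a blocks the assembly of the terminal pore.

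The 4 libraries held 6802 to 8750 nuclei and 59262228 to 65894316 unique molecular identifiers (UMIs, each counting 1 captured RNA molecule) after filtering, and any pair of libraries shared 12 to 19 cell barcodes. Nuclei were assigned to a cell type by counting how many of 10 marker genes had a UMI, with no complement gene among the markers. This gave 25503 nuclei in 6 types, of which 4329 were oligodendrocytes, 2046 microglia, 689 oligodendrocyte precursor cells (OPCs), 200 astrocytes, 15165 excitatory neurons and 3074 inhibitory neurons. Each list was highest in the type it names. The oligodendrocyte markers together had 11298 to 12324 CPM (UMIs per 1000000 UMIs of that cell type in that library) in oligodendrocytes and 41.7 to 109 in astrocytes. Microglial markers had 10399 to 14110 CPM in microglia, and astrocyte markers 7483 to 8023 CPM in astrocytes. The lists were not exclusive. Inhibitory-neuron markers had 4215 to 4697 CPM in OPCs and 1460 to 1697 in oligodendrocytes, and OPC markers 1439 to 1912 CPM in astrocytes. Nuclei of 3M-2 were the shallowest, with a median of 1664.5 UMIs in oligodendrocytes and 1500 in microglia, against 1986 to 2820 and 1690 to 2237 in the other libraries. Gclc itself had 42.9, 33.5, 34.8 and 37.0 CPM in the excitatory neurons of the 4 libraries. Since tags are counted at the 3′ end and there is no wild-type library, that level does not check the deletion.

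The members divided between cell types. C1qa, C1qb and C1qc had 73.6%, 79.2% and 83.4% of their UMIs in microglia, and Itgam had 95.1% there, whereas C4b had 84.8% of its 2347 UMIs in oligodendrocytes and 1.07% in microglia. C3ar1 had 59.1% of 399 UMIs in microglia. These shares also follow how many nuclei and UMIs each type had, and most oligodendrocyte UMIs of C4b came from the 6-month libraries. By mean level C4b had 166 CPM in oligodendrocytes and 140 CPM in astrocytes, and at 3 months 26.7 and 82.5 CPM. Cd59a was spread at low levels over 391 UMIs, and C3 and Serping1 were close to absent, with 7 and 66 UMIs over the 25503 nuclei. A level of one gene is not compared with that of another, since CPM are not scaled by gene length.

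**Figure D1:**
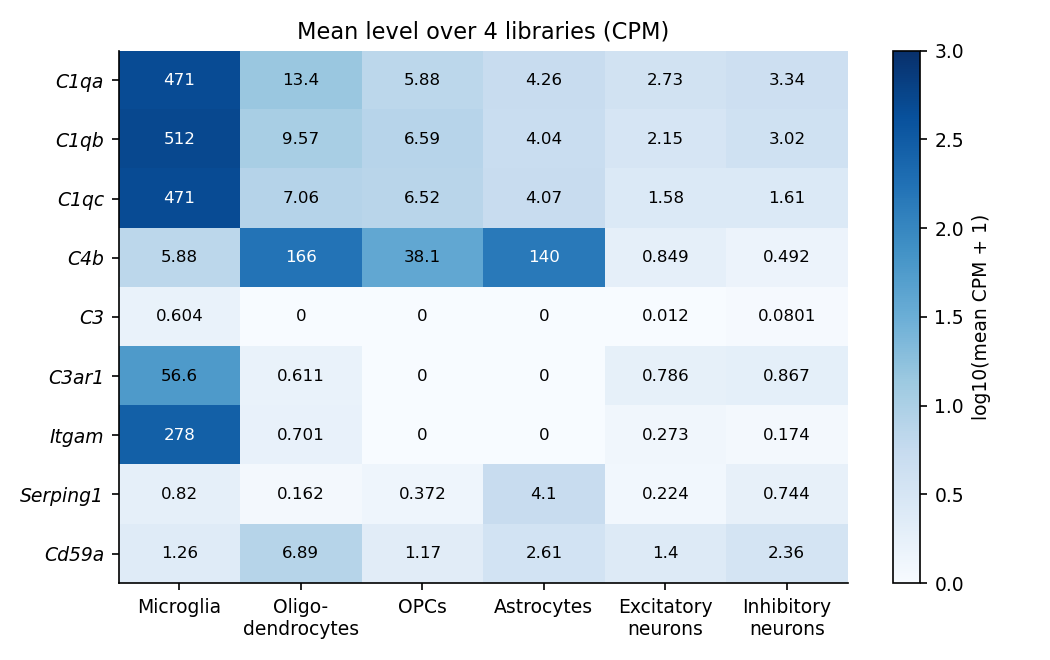
Heat map of the mean level of the 9 members (rows) in 6 cell types (columns) over the 4 libraries, in CPM, written in each cell and coloured by log10(mean + 1). C1qa, C1qb, C1qc, C3ar1 and Itgam stand out in the microglial column, while C4b stands out in oligodendrocytes (166), astrocytes (140) and OPCs (38.1).

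C1qa, C1qb and C1qc encode the chains that together form C1q. They lie side by side on the minus strand of chromosome 4 (GRCm38, 136880129 to 136898803, a span of 18675 bp), C1qa at 136895917 to 136898803, C1qc at 136889804 to 136893065 and C1qb at 136880129 to 136886187. For C1qb and C1qc the 250 bp before the RefSeq start on GRCm38.p6 were taken, without bases that GENCODE places inside the gene. This left 99 bp for C1qc, which lie directly before its GENCODE start and not directly before its RefSeq start. Because the 3 genes share their main cell type, the resulting stretches of C1qb and C1qc are shown, written in the direction of transcription. Both were searched for AGGAAGT, the core bound by ETS-family factors such as PU.1, on both strands, and the match, which lies on the opposite strand and so reads ACTTCCT, is in capitals.
C1qb, chr4:136886201-136886450, minus strand: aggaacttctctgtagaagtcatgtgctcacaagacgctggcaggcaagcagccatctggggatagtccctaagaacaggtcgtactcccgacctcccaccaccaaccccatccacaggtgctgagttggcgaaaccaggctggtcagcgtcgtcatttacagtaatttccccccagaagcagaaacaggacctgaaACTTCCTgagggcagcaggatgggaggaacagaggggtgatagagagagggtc
C1qc, chr4:136893066-136893164, minus strand: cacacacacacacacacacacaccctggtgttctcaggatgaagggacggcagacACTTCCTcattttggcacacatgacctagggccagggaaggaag
Each stretch held 1 match. A match was found in 7.69% of 32851 promoters over 250 bp and in 2.65% over the 99 bp of C1qc, so it is a common sequence and only a description here. Of the 6 members with a promoter in the table, C3, C3ar1, Itgam and Cd59a had 0 matches in their windows.

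In microglia C1qa reached 290, 487, 633 and 474 CPM. C1qb reached 382, 490, 643 and 534 CPM, and C1qc 353, 413, 596 and 522 CPM. For C1qb and C1qc the 6-month pair was entirely above the 3-month pair, while for C1qa the ages overlapped, because 3M-2 was above 6M-2. Over the 4 libraries the means were 471 ± 141, 512 ± 108 and 471 ± 109 CPM for C1qa, C1qb and C1qc (SD, n = 4). The next type in order for each of these genes was oligodendrocytes, at 13.4, 9.57 and 7.06 CPM, with no overlap between the types.

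The 3 genes were tested in microglia against the mean of the other 5 cell types with edgeR's quasi-likelihood test on the UMI sums, with the library as a block and p-values adjusted by Benjamini-Hochberg over every gene in the fit. C1qa was higher by 6.20 ± 0.14 on the log2 scale (SE, adjusted p = 4.78e-27), C1qb by 6.50 ± 0.13 (adjusted p = 6.68e-28) and C1qc by 6.75 ± 0.13 (adjusted p = 1.00e-28). In that fit 64.7% of all 14761 genes passed, 32% higher and 32.7% lower. Itgam and C3ar1 passed the filter on low counts through microglia alone, so their calls are not used. C4b had 1.93, 4.90, 6.16 and 10.5 CPM in microglia and is given no test, since the mean of the other types holds the oligodendrocyte values that selected it.

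Outside microglia the C1q genes gave few UMIs. In excitatory neurons C1qa had 1.15, 1.90, 3.77 and 4.12 CPM, from 50, 86, 151 and 162 UMIs. The summed markers of microglia also appeared in these neurons, at 26.2, 35.2, 49.7 and 42.1 CPM. If C1qa had followed those markers in the ratio it has to them in microglia, it would have been at 0.537, 1.53, 3.02 and 1.85 CPM, which is below each measured level. C1qb had 1.15, 1.21, 2.99 and 3.25 CPM against 0.709, 1.54, 3.07 and 2.09 CPM at its own ratio. C1qc had 0.991, 0.707, 1.87 and 2.77 CPM against 0.656, 1.295, 2.85 and 2.04 CPM. Both were below the ratio value in 3M-2 and 6M-1 and above it in the other two. The part of free or carried-over microglial RNA in the neuronal values was not tested beyond this ratio. After thinning each nucleus to 1000 UMIs, 0.116%, 0.200%, 0.460% and 0.525% of excitatory neurons had a C1qa UMI, against 22.6%, 36.2%, 43.1% and 36.9% of microglia. Excitatory neurons, at a median of 7836 to 11501 UMIs before thinning, were deeper than microglia at 1678 to 2296.

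Detection of the C1q genes was also compared within single microglia. Of nuclei with a C1qa UMI after thinning, 33.7%, 39.4%, 55.1% and 45.7% also had a C1qb UMI, compared with 31.3%, 38.3%, 44.7% and 37.1% of nuclei without one. That share was higher in C1qa-positive nuclei in all 4 libraries, by a margin that differed between them. Of nuclei with a C1qb UMI, 40.6%, 34.2%, 43.1% and 42.3% also had a C1qc UMI, compared with 27.5%, 31.2%, 46.4% and 40.8% of nuclei without one, so the order was the opposite in 6M-1. Nuclei of the same library share their mouse and their depth, so no test was made. Among 18228 genes with at least 100 UMIs, C1qb had the pattern nearest to C1qa over the 24 sums of cell type and library (Pearson's r = 0.981 on log2 CPM), followed by Fam76b (0.965), Arpc1b (0.947), Abhd15 (0.947) and Ikbkb (0.931). These sums share libraries and differ in depth.

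Whether the microglial members changed with age was tested in the 4 microglial sums. None of the 5 members tested passed, where 11 of 11232 genes did (0.0979%). At the same time 4 of the 5 had an unadjusted p under 0.05, as did 854 of all genes, and DESeq2 called 0 members and 15 genes. The log2 differences at 6 against 3 months were 0.52 ± 0.23 for C1qa, 0.43 ± 0.18 for C1qb and 0.54 ± 0.17 for C1qc (SE), with adjusted p-values of 0.652, 0.617 and 0.408 in edgeR's quasi-likelihood test. The 2 ages did not overlap for 3 of the 5 members, C1qb, C1qc and Itgam, against 36.3% of all genes. With 2 libraries per age these p-values measure only the spread between these libraries.

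These calls changed with single libraries. Without 3M-2, C1qa differed by 0.88 (adjusted p = 7.98e-08), C1qb by 0.57 (adjusted p = 0.00110), C1qc by 0.61 (adjusted p = 5.01e-04) and Itgam by -0.65 (adjusted p = 6.94e-04), by edgeR's quasi-likelihood test. In that fit 809 genes passed and the lone 3-month library was assumed to vary like the 6-month libraries. Without 3M-1 Itgam passed too, at -0.52 (adjusted p = 0.0481), in a fit with 283 calls. Thinned shares followed the same order as the levels for C1qb, with 31.9%, 38.7%, 49.2% and 40.3% of microglia carrying a UMI.

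**Figure D2:**
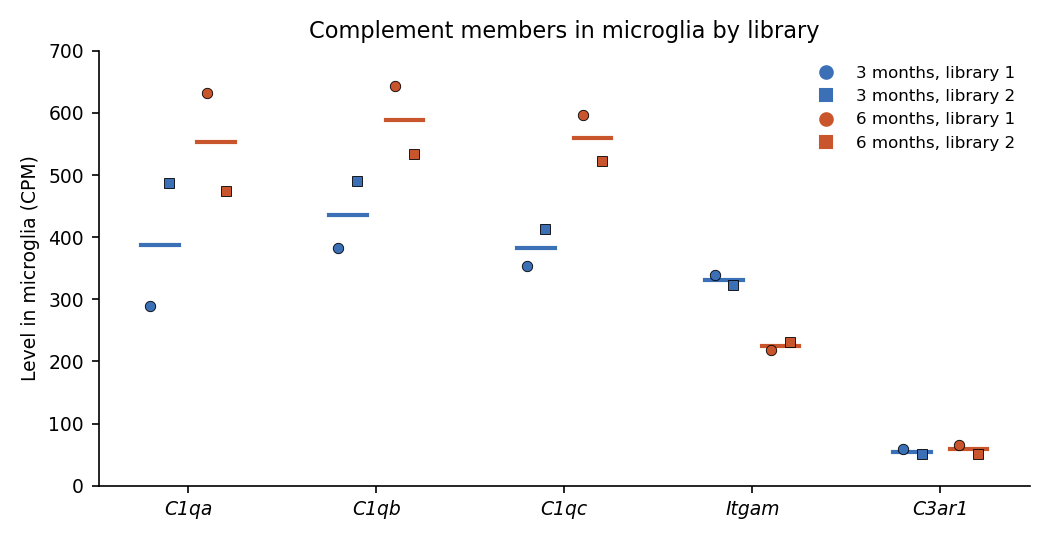
Level of 5 members in microglia (y axis, CPM) for each library, with circles and squares for libraries 1 and 2 of an age, blue for 3 months and red for 6 months, and a bar at the mean of each age. C1qb and C1qc lie higher and Itgam lower in both 6-month libraries, C1qa overlaps between ages, and C3ar1 stays between 50.6 and 66.2.

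C3ar1 and Itgam are the receptor members, encoding the receptor for the C3a fragment and the alpha chain of complement receptor 3. Itgam (chromosome 7, 128062640 to 128118491, plus strand) overlaps Gm49368 on the same strand, and C3ar1 lies on chromosome 6 (122847138 to 122856161, minus strand). Itgam had 340, 323, 218 and 232 CPM in microglia, so that both 6-month libraries lay below both 3-month libraries. The log2 difference at 6 against 3 months was -0.57 ± 0.16 (SE, adjusted p = 0.343, edgeR's quasi-likelihood test). A thinned UMI of Itgam was found in 24.02%, 29.6%, 17.4% and 20.0% of microglia, with both 6-month libraries the lower.

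C3ar1 had 58.9, 50.6, 66.2 and 50.9 CPM in microglia, from 61, 31, 86 and 58 UMIs, and the ages overlapped. Its difference was 0.07 ± 0.26 on the log2 scale (adjusted p = 0.973, edgeR's quasi-likelihood test), and the sign turned when 3M-2 (-0.06) or 6M-1 (-0.13) was left out. Both receptors were listed at 0 in astrocytes and OPCs of every library, and in oligodendrocytes neither exceeded 1.03 CPM. No fold against the other types is given because of these zeros. In pooled border macrophages, 41 nuclei in all, Itgam had 42.0 CPM (exact Poisson 95% interval 18.1 to 82.8, counting error only) and C1qa 352 CPM (273 to 447).

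Microglia were then divided by state. A nucleus was called DAM (disease-associated microglia, a state known for lipid-handling and phagocytic genes) when at least 3 of 12 markers such as Lpl, Cst7 and Spp1 had a UMI, which gave 97, 46, 162 and 106 nuclei. These nuclei were deeper than the other microglia in every library, with medians of 2711, 2311.5, 2055.5 and 2309 UMIs against 2132, 1363, 1614 and 1910. The 12 markers together had 1133 to 1742 CPM in all microglia. They also had 661 to 848 CPM in oligodendrocytes and 442 to 465 CPM in inhibitory neurons, so they name a state only within gated microglia. C1qa had 208, 321, 532 and 429 CPM in DAM-gated nuclei and 317, 524, 674 and 487 CPM in the others. C1qc had 284, 347, 524 and 414 CPM against 377, 428, 626 and 554 CPM, and Itgam 277, 187, 205 and 114 against 361, 354, 223 and 267. In each of the 4 libraries the DAM-gated level of all 3 genes was the lower one.

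C3ar1 went the other way, with 79.6, 62.3, 104 and 94.9 CPM in DAM-gated nuclei and 51.8, 48.0, 50.9 and 37.6 CPM in the others, higher in 4 of 4 libraries. With the library as a block, edgeR's quasi-likelihood test gave -0.42 ± 0.12 for C1qa (SE, adjusted p = 0.0211), -0.35 ± 0.11 for C1qc (adjusted p = 0.0439), -0.58 ± 0.15 for Itgam (adjusted p = 0.0132) and 0.91 ± 0.22 for C3ar1 (adjusted p = 0.00592) on the log2 scale. C1qb, at -0.23 ± 0.11, did not pass (adjusted p = 0.241). Of 5 members tested, 1 was higher and 3 were lower, where 9.29% of 8787 genes passed, 5.37% higher and 3.91% lower.

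These calls changed with the test and with the gate. DESeq2 called 0 of the 5 members (adjusted p = 0.115 to 0.401 for those 4) and 336 genes in all. When nuclei were thinned to 1000 UMIs before the gate, with 2 markers needed, none of the 4 passed in edgeR's quasi-likelihood test (adjusted p = 0.0886 to 0.385), although every direction was kept. Without the library block C3ar1 still passed and the other 3 did not (adjusted p = 0.165 to 0.485). Each of the 4 calls was also lost when some single library was left out, C1qa without 3M-1 or 3M-2 (adjusted p = 0.100 and 0.0929) and Itgam without 3M-2 or 6M-2 (adjusted p = 0.0575 and 0.186). C3ar1 was lost without 6M-1 or 6M-2 (adjusted p = 0.0648 and 0.0908) and C1qc without any 1 of the 4 (adjusted p = 0.0631 to 0.204).

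**Figure D3:**
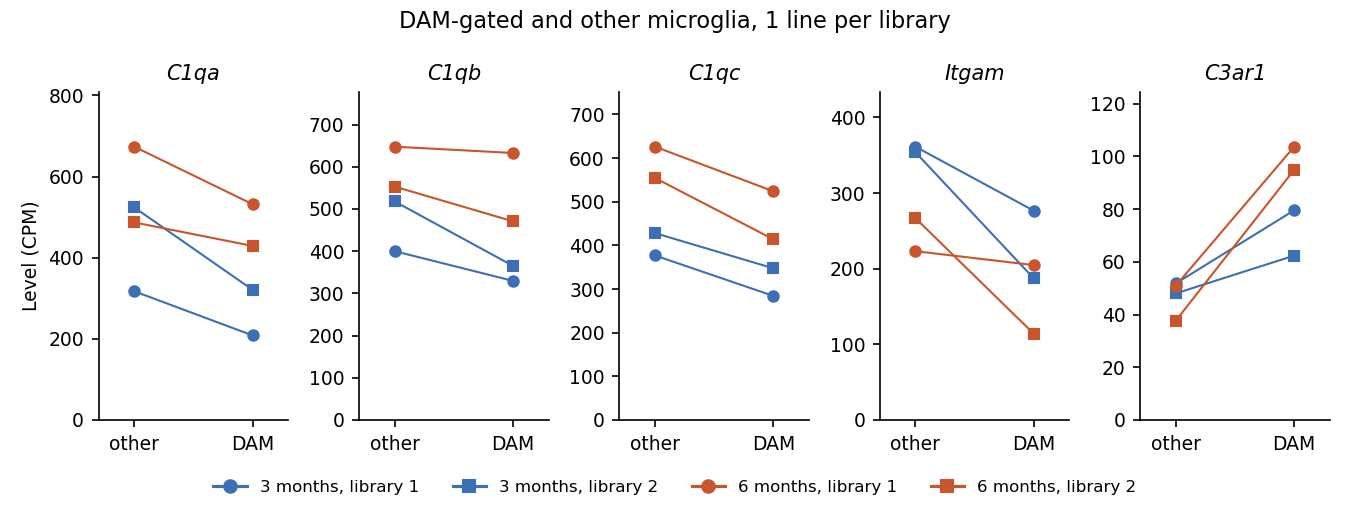
Level of 5 members (y axis, CPM, a separate scale from 0 for each gene) in other and DAM-gated microglia, with 1 line per library, blue for 3 months and red for 6 months. The lines for C1qa, C1qb, C1qc and Itgam fall and those for C3ar1 rise in all 4 libraries.

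Complement pathway genes that are not members were read from the same fits, using a list of 62 genes that includes the 9 members. Between DAM-gated and other microglia 22 of the list were tested and 5 were higher and 4 lower, with a median log2 difference of -0.27 against 0.00 for all genes. Besides the members Lrp1 was higher at 0.43 ± 0.12 (SE, adjusted p = 0.0153, edgeR's quasi-likelihood test) and Csmd3 lower at -0.61 ± 0.09 (adjusted p = 1.98e-05). The others counted as higher include Colec12, Itgax and the lectin-pathway protease Masp1, which were low outside the DAM gate and entered the fit through the DAM-gated sums, so their calls are not used. Colec12, a scavenger collectin, had 11.4, 71.3, 47.9 and 178 CPM in DAM-gated and 0, 0, 4.33 and 7.98 CPM in other microglia. Levels of Itgax, the alpha chain of complement receptor 4, were 75.8, 44.5, 79.8 and 98.7 CPM in DAM-gated and 3.88, 2.00, 21.7 and 16.0 CPM in other microglia, while Itgam, whose product pairs with the same beta chain, was lower in these nuclei.

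In microglia against the other types 23 list genes that are not members were tested, with 9 higher and 10 lower. Over all 29 list genes tested, members included, the median was 0.72 against -0.05 for all genes. Those higher include genes that passed the filter on low counts through microglia, among them Itgax and the C5a receptor genes, so the count is no support for the list. The C5a receptor gene C5ar1 had 56.0, 109, 64.6 and 67.5 CPM in microglia. Itgb2, the beta chain that pairs with Itgam and Itgax, had 35.7, 63.7, 53.1 and 43.0 CPM. Lrp1 (1.40 ± 0.09, SE) and Csmd3 (1.23 ± 0.10) were also higher on the log2 scale, while the complement control genes Csmd2 (-3.34 ± 0.16), Csmd1 (-2.59 ± 0.13) and Sez6l2 (-1.91 ± 0.21) were lower. By mean level Csmd3 was highest in OPCs, at 2771 CPM against 2378 CPM in microglia. At 6 against 3 months in microglia, 0 of 26 list genes passed in edgeR's quasi-likelihood test, while 7 had an unadjusted p under 0.05 and DESeq2 called 0, with a list median of 0.29 against 0.01.

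C4b encodes complement component 4B, the protein that C1-associated protease cleaves and that joins the C3 convertase. It lies on the minus strand of chromosome 17 (GRCm38, 34728380 to 34743882), in 1 cluster with C4a (34809092 to 34823464), a close paralog, so that reads which could belong to either are uncertain. C4a was listed at 0, 1, 2 and 3 UMIs in oligodendrocytes. In excitatory neurons C4a had 63, 61, 53 and 55 UMIs. The 2 genes thus had unlike distributions, though how shared reads were assigned is not visible in the counts.

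In oligodendrocytes C4b had 75, 35, 876 and 1005 UMIs, or 30.2, 23.2, 266 and 346 CPM. Both 6-month libraries lay far above both 3-month libraries. The mean was 26.7 CPM at 3 months and 306 CPM at 6 months, a ratio of 11.5 or 3.52 on the log2 scale, against a pooled SD of log2 CPM of 0.27 between libraries of an age. In this contrast 0.122% of 12331 genes passed the test across all genes, and 78 genes in place of 15 with the replicate number as a block, from which nothing is read about C4b because the contrast chose it. The log2 ratio stayed between 3.32 and 3.72 when any 1 library was left out, and it was 3.39 in oligodendrocytes with no UMI of a microglial, macrophage or astrocyte marker.

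**Figure D4:**
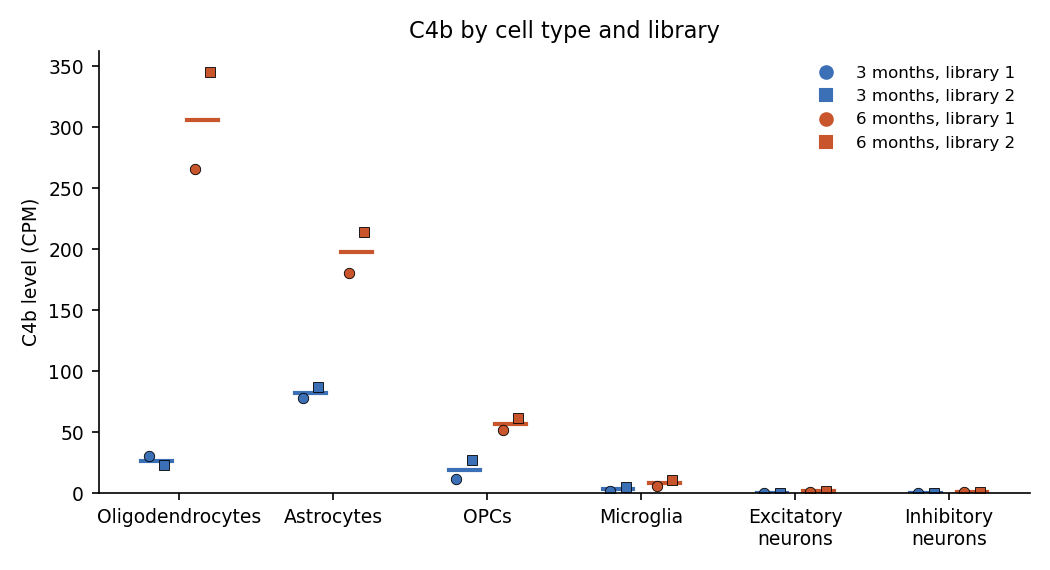
Level of C4b (y axis, CPM) in 6 cell types for each library, with circles and squares for libraries 1 and 2, blue for 3 months and red for 6 months, and a bar at the mean of each age. Oligodendrocytes are at 23.2 and 30.2 at 3 months and at 266 and 346 at 6 months, and in astrocytes and OPCs both red points also lie above both blue points.

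More oligodendrocytes carried C4b at 6 months, and those that did carried more of it. With every nucleus thinned to 1000 UMIs, a C4b UMI was present in 22 of 824 nuclei of 3M-1 (2.67%, Wilson 95% interval 1.77 to 4.01) and in 17 of 695 of 3M-2 (2.45%, 1.53 to 3.88). In 6M-1 there were 324 of 1464 (22.1%, 20.1 to 24.3) and in 6M-2 271 of 1168 (23.2%, 20.9 to 25.7), an age difference of 20.1 percentage points. These intervals cover counting error only. The thinning left out 27, 113, 30 and 8 nuclei with under 1000 UMIs, and unthinned the shares were 6.82%, 3.59%, 34.2% and 42.1%.

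Per positive nucleus the mean number of C4b UMIs before thinning was 1.29, 1.21, 1.71 and 2.03. Nuclei with 5 or more C4b UMIs numbered 0 and 0 at 3 months, and 12 and 31 at 6 months. Even at 6 months 65.8% and 57.9% of oligodendrocytes had no C4b UMI. At this depth a nucleus without a UMI cannot be told apart from one that does not express the gene.

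**Figure D5:**
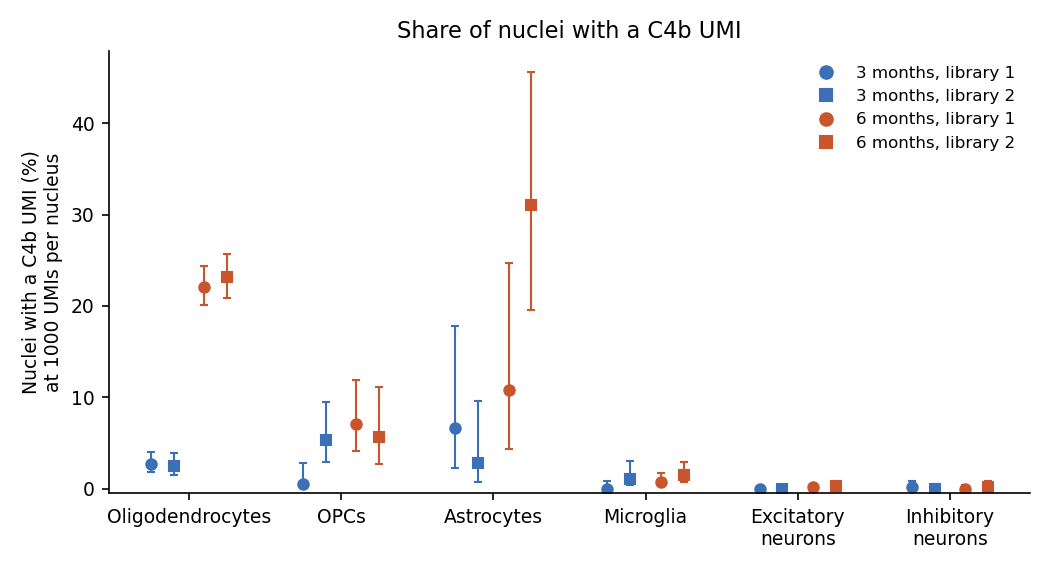
Share of nuclei with at least 1 C4b UMI after thinning to 1000 UMIs per nucleus (y axis, percent) by cell type and library, with Wilson 95% intervals. Oligodendrocytes are at 2.67% and 2.45% at 3 months and at 22.1% and 23.2% at 6 months, and astrocytes have wide intervals because there were only 37 to 73 nuclei per library.

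In astrocytes C4b had 78.2, 86.8, 181 and 214 CPM, from 15, 17, 20 and 36 UMIs in 45, 73, 37 and 45 nuclei. At 3 months both astrocyte sums were above both oligodendrocyte sums, and at 6 months both were below. Over the 4 libraries oligodendrocytes (166 ± 164 CPM, SD) and astrocytes (140 ± 68.0) overlapped in order. The means at 6 over 3 months were in a ratio of 2.40 in astrocytes, 2.96 in OPCs and 2.44 in microglia, beside 11.5 in oligodendrocytes. Excitatory and inhibitory neurons had ratios of 9.75 and 5.86, at levels of at most 1.93 CPM and from 136 and 14 UMIs in all. The microglial ratio rests on 25 UMIs. None of these ratios was tested against another. In order of mean level OPCs (38.1 ± 23.1) came next and overlapped with oligodendrocytes but not with astrocytes. Microglia (5.88) followed without overlap, with excitatory and inhibitory neurons lowest at 0.849 and 0.492.

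Against the mean of the other 5 types, which holds the oligodendrocyte values that selected it, C4b is given no test in astrocytes. Of the other 5 members tested, 0 passed in edgeR's quasi-likelihood test with the library as a block, 0 had an unadjusted p under 0.05 and DESeq2 called 0, where 30.4% of 14761 genes passed, 14.8% higher and 15.6% lower. C1qa, C1qb and C1qc had 3 UMIs each in the astrocytes of all libraries together. Itgam and C3ar1 were listed at 0 in astrocytes and have no fold. With so few UMIs the lack of calls says nothing about these members. Of the list genes that are not members 23 were tested, with 5 higher and 6 lower. Over all 29 list genes tested, members included, the median was -1.12 against -0.22 for all genes. Clu, an extracellular chaperone that blocks the terminal pore, was higher by 4.22 ± 0.19 on the log2 scale (SE, adjusted p = 3.73e-18) and had 308, 480, 308 and 596 CPM in astrocytes. Cr2 (1.41 ± 0.31, SE), Masp1 (0.99 ± 0.35) and Lrp1 (0.96 ± 0.16) were also higher than that mean. By mean level Masp1 was higher in OPCs (41.5 CPM) than in astrocytes (32.4). Lrp1 was higher in microglia (309 CPM) and OPCs (242) than in astrocytes (214). Cr2 was highest in astrocytes (45.9 CPM) but overlapped with oligodendrocytes (35.3). The lower genes in order of p were Csmd3 (-4.76), Csmd1 (-1.32), Sez6l2 (-3.02), Susd4 (-4.16), Csmd2 (-1.43) and Sez6l (-2.18), most of which encode membrane proteins with complement control domains. Csmd1 and Sez6l had their highest mean level in excitatory neurons, Csmd3, Csmd2 and Susd4 in OPCs and Sez6l2 in oligodendrocytes.

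At 6 against 3 months in astrocytes C4b differed by 1.22 ± 0.38 on the log2 scale (SE, adjusted p = 0.518, edgeR's quasi-likelihood test). Only 3712 genes could be tested in these small sums and 0 passed (0%), while 174 had an unadjusted p under 0.05, 5 passed with the replicate number as a block and DESeq2 called 0. C4b was the 1 member tested, and its ages did not overlap, as for 34.9% of all genes. The oligodendrocyte markers in the astrocytes were at 41.7, 51.1, 109 and 53.6 CPM, which at the oligodendrocyte ratio corresponds to 0.102, 0.0979, 2.49 and 1.64 CPM of C4b. The measured astrocyte levels, 78.2 to 214 CPM, were above those values in each library, and their source was not tested beyond this ratio.

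In OPCs, the cells from which oligodendrocytes form, C4b had 11.3, 27.2, 52.1 and 61.8 CPM, from 10, 17, 35 and 31 UMIs. Both 6-month libraries were higher than both 3-month libraries. The log2 difference was 1.63 ± 0.41 (SE, unadjusted p = 0.00147, adjusted p = 0.998, edgeR's quasi-likelihood test). Without 3M-2 it was 2.33, but there C4b passed the filter on low counts through the 6-month sums alone, so its call is not used. In the fit of all 4 libraries 1 gene of 9202 passed (0.0109%), and 0 with the replicate number as a block, while 400 had an unadjusted p under 0.05 and DESeq2 called 3. C4b, the 1 member tested, did not overlap between ages, as for 32.3% of genes. Since 3M-1 lay below the filter's limit, C4b needed a 6-month sum to be tested, so the filter favoured this order without fixing it. Oligodendrocyte markers in OPCs were at 2.90%, 1.99%, 2.85% and 2.68% of their oligodendrocyte level, which would carry 0.876, 0.460, 7.58 and 9.27 CPM of C4b. Astrocyte markers in OPCs would carry 6.20, 6.85, 10.4 and 13.8 CPM, and the measured level was above the sum of both in every library. Glial nuclei with many markers of another type had already been left out as mixed. The source of the C4b counts in OPCs was not tested beyond these ratios.

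Between oligodendrocytes and OPCs at 3 months no test is given for C4b, the 1 member in the fit, since its 3-month oligodendrocyte values are part of what selected it. Its level was higher in oligodendrocytes in 3M-1 (30.2 against 11.3 CPM) and higher in OPCs in 3M-2 (27.2 against 23.2 CPM), so the types overlapped. In edgeR's quasi-likelihood test 46.4% of 11150 genes passed, 21.1% higher in oligodendrocytes and 25.3% lower. Of 15 list genes in the fit besides C4b, 1 was higher and 10 were lower. The median log2 difference of the list, C4b included, was -1.12 against 0.02 for all genes. Sez6l2 was higher at 3.68 ± 0.21 (SE), and the lower genes in order of p began with Csmd1 (-4.16), Lrp1 (-4.68), Susd4 (-3.84), Sez6l (-2.94) and Csmd2 (-1.60).

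C4b was lowest in neurons. Excitatory neurons had 7, 7, 46 and 76 UMIs, or 0.161, 0.155, 1.15 and 1.93 CPM. After thinning, 0 of 3438 and 0 of 4996 nuclei at 3 months had a C4b UMI, which allows shares of up to 0.0873% and 0.0600%, and 5 of 3476 (0.144%) and 9 of 3239 (0.278%) had one at 6 months. Oligodendrocyte markers in these neurons were at 18.7, 21.7, 34.6 and 39.4 CPM, which at the oligodendrocyte ratio would bring 0.0458, 0.0416, 0.793 and 1.21 CPM of C4b. Astrocyte markers in them would, at the astrocyte ratio, bring 1.03, 1.03, 2.85 and 2.16 CPM, which is more than was measured in each library. The measured neuronal C4b level lay above the oligodendrocyte value and below the astrocyte value in each library, and its source was not tested.

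The difference at 6 against 3 months in excitatory neurons was 3.24 ± 0.47 for C4b on the log2 scale (SE, unadjusted p = 1.25e-04, adjusted p = 0.484, edgeR's quasi-likelihood test). With the replicate number, which is also the labelled batch, as a block it passed (3.21, adjusted p = 0.0291, with 8 calls in all). It also passed with DESeq2 (3.25, adjusted p = 0.00463) and in edgeR's test without a filter on low counts (3.22, adjusted p = 0.0323). C4b passed that filter through the 6-month sums alone, so its calls in the filtered fits are not used. At the oligodendrocyte ratio its neuronal level would also have been higher at 6 months, at 0.0458, 0.0416, 0.793 and 1.21 CPM. Neuronal nuclei with glial markers were not left out as mixed. The share of oligodendrocyte RNA was not tested, so the call without a filter is not used as a rise within neurons either. None of the 8 members tested passed in the fit without a block, where 0 of 19390 genes did (0%), 1171 had an unadjusted p under 0.05 and DESeq2 called 49 genes, 1 of them a member. Of the 8 members 4 had an unadjusted p under 0.05, and 6 did not overlap between ages, against 36.4% of genes. Among these 6, C4b, Itgam and Serping1 passed the filter on low counts through the 6-month sums alone. Their lack of overlap was thus fixed by the filter and is not used.

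C1qa, C1qb and C1qc differed in the same neurons by 1.35 ± 0.31, 1.38 ± 0.28 and 1.42 ± 0.36 on the log2 scale (SE, adjusted p = 0.576, 0.576 and 0.604, edgeR's quasi-likelihood test). Of these, C1qb and C1qc passed without 3M-1, and C1qa and C1qb passed without 3M-2. Those fits assumed that the lone 3-month library varies like the 6-month libraries. At the microglial ratio C1qa would also have been higher at 6 months, at 0.537, 1.53, 3.02 and 1.85 CPM. The part of microglial RNA in these differences was not tested. In inhibitory neurons 3 members could be tested, and the C1q genes differed by 1.63 ± 0.44, 1.19 ± 0.43 and 1.60 ± 0.50 (SE, adjusted p = 0.961 for each). All 3 had an unadjusted p under 0.05 and did not overlap between ages, as for 33.9% of genes. C1qc passed the filter on low counts through the sums of the older mice alone. Its lack of overlap was thus fixed by the filter, and neither that order nor its unadjusted p is used. C1qa and C1qb also needed a sum of the older mice to pass, so the filter favoured their order without fixing it. In this fit 0 of 14994 genes passed (0%), 644 had an unadjusted p under 0.05, 2 passed with the replicate number as a block, and DESeq2 called 2 genes and 0 members. C1qa measured 2.15, 1.05, 5.67 and 4.48 CPM in inhibitory neurons, against 0.875, 2.26, 3.43 and 2.36 CPM at the microglial ratio. C1qc measured 0.718, 0.873, 2.14 and 2.72 CPM against 1.07, 1.92, 3.23 and 2.60 CPM. C1qb lay above its ratio value in each library. The source of these UMIs was not tested.

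Of the pathway list, 0 of 48 genes passed at 6 against 3 months in excitatory neurons, 0 of 23 in inhibitory neurons, 0 of 15 in OPCs and 0 of 9 in astrocytes by edgeR's quasi-likelihood test. The numbers with an unadjusted p under 0.05 were 11, 3, 1 and 1. DESeq2 called 1 list gene in excitatory neurons, C4b, whose call is not used, and 0 in the other 3 types. The list medians were 0.51, 0.07, 0.09 and 0.18 on the log2 scale, beside medians of -0.00, 0.00, -0.00 and -0.01 for all genes tested.

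The pattern of C4b over the 24 sums of cell type and library was most like that of Kcnj10 (Pearson's r = 0.941 on log2 CPM), followed by Dbi (0.936), Cmtm5 (0.932), Insyn2a (0.928) and Dock1 (0.921). Kcnj10 encodes a potassium channel of glia and Dbi a binding protein for acyl-CoA. The sums share libraries and the cell types differ in depth, so the values are a description.

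C3, the component on which all branches of the cascade meet, lies on the minus strand of chromosome 17 (57203970 to 57228136) and had 7 UMIs in the 6 types. Microglia held 0, 0, 2 and 1 UMIs, and excitatory and inhibitory neurons held 2 each in all. Oligodendrocytes, OPCs and astrocytes had 0 UMIs in every library. A count of 0 allows up to 0.911 to 1.99 CPM in oligodendrocytes and 15.3 to 27.1 CPM in astrocytes, taking 3 UMIs per library as the limit. All counts are of RNA in nuclei, and cytoplasmic mRNA was not measured.

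Serping1 and Cd59a, the regulators among the members, were low, unlike some other regulators of the list such as Clu in astrocytes. Serping1 (chromosome 2, 84765387 to 84775444, minus strand) had 8, 6, 12 and 11 UMIs in excitatory neurons and 11, 4, 3 and 2 in inhibitory neurons, and its mean level overlapped between all neighbouring cell types. With 66 UMIs in all it was below the 100 UMIs needed for a search of similar genes. In 20 pooled fibroblast nuclei it had 8 UMIs, or 162 CPM (exact Poisson 95% interval 69.8 to 319). Its difference in excitatory neurons was 0.84 ± 0.54 on the log2 scale (SE, adjusted p = 0.867, edgeR's quasi-likelihood test). Serping1 passed the filter on low counts there through the 6-month sums alone. Its order between ages was thus fixed by the filter, and the difference is not used.

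Cd59a (chromosome 2, 104095801 to 104115354, plus strand), which has the close paralog Cd59b beside it, had 6.84, 2.65, 11.5 and 6.53 CPM in oligodendrocytes, and the ages overlapped. Excitatory neurons had 1.11, 1.17, 2.52 and 0.788 CPM and inhibitory neurons 1.01, 1.05, 6.43 and 0.961 CPM. In both kinds of neuron 6M-1 stood above the other 3 libraries. The difference in excitatory neurons was 0.51 ± 0.50 (SE, adjusted p = 0.894, edgeR's quasi-likelihood test) and -0.54 without 6M-1. In 17 pooled endothelial nuclei Cd59a had 9 UMIs, or 313 CPM (exact Poisson 95% interval 143 to 595), from a pool without replicates.

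The remaining oligodendrocyte values of the members are C1qa at 7.64, 11.3, 13.4 and 21.3 CPM, C1qb at 7.64, 2.65, 12.2 and 15.8 CPM and C1qc at 4.83, 5.96, 5.77 and 11.7 CPM. For C1qa and C1qb both 6-month values lay above both 3-month values, and for C1qc they overlapped. In the other cell types the ages did not overlap for 32.3% to 36.4% of all genes tested. That share was not computed in oligodendrocytes, so the order is only a description. Microglial markers in the oligodendrocytes stood at 80.8, 80.8, 98.7 and 100 CPM. At the microglial ratio this corresponds to 1.66, 3.50, 6.01 and 4.41 CPM of C1qa, below each measured level. For C1qb it gives 2.19, 3.52, 6.11 and 4.97 CPM, above the measured level in 3M-2 only. For C1qc it gives 2.02, 2.97, 5.66 and 4.86 CPM, below each measured level. The source of these C1q UMIs was not tested. In the microglia C4b had 1.93, 4.90, 6.16 and 10.5 CPM from 2, 3, 8 and 12 UMIs. Astrocyte markers in those microglia were at 387, 286, 571 and 537 CPM, which at the astrocyte ratio corresponds to 4.05, 3.27, 12.9 and 14.7 CPM of C4b, above the measured level in 3 of 4 libraries. What share of the microglial C4b counts is astrocyte RNA was not tested further.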

How the data were processed

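Cerebral cortex nuclei of GCLC-KO mice were profiled with 10x Genomics 3′ v3.1 chemistry. The deposited values are raw UMI counts per gene and nucleus, made for the authors with Cell Ranger 7.0.0 on mm10, per the file headers and labels, without normalization. The study's limits (at most 7000 genes and 1% mitochondrial UMIs) kept 30515 of 30784 nuclei, 1 fewer than the study states. A nucleus took a type with UMIs of at least 4 of 10 markers and 2 more than for any other list. Nuclei gated as 1 of the 4 glial types with at least 4 markers of another list, border macrophages aside, were left out as mixed (794). This stood in place of a doublet caller. Neuronal nuclei had no such rule, so those that also carried glial markers could stay in the neuronal sums. UMIs were summed per library and type and tested with edgeR 4.0.16 (quasi-likelihood, TMM, filterByExpr, Benjamini-Hochberg, threshold 0.05) in R 4.3.3; DESeq2 1.42.0 was an alternative, and scripts were tested on simulated data. CPM uses all UMIs of the sum. Replicate numbers equal the labelled batch, so they pair the libraries, although same-numbered libraries did not deviate together (correlations of -0.13 to -0.03 over genes). Positions are from GENCODE M21 (GRCm38). Named genes are the members, at most 10 passing list genes per comparison in order of p (1 is not reported here), and the 5 genes nearest to C4b and C1qa. Members and lists were chosen with earlier results of these data known.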

Additional observations from a re-analysis of the deposited data

Results flagged for a closer look

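Itgam, the alpha chain of complement receptor 3, had age differences of opposite sign in 2 cell types. Its level was lower in both 6-month libraries in microglia (log2 difference -0.57 at 6 against 3 months, from 340 and 323 to 218 and 232 CPM) and higher in both in excitatory neurons (1.12, from 0.138 and 0.199 to 0.499 and 0.254 CPM). The microglial less the neuronal difference was -1.70, and the difference was not tested. Neither age difference passed in edgeR's quasi-likelihood test (adjusted p = 0.343 in microglia and 0.854 in excitatory neurons). In excitatory neurons Itgam passed the filter on low counts through the 6-month sums alone, so its order between ages there was fixed by the filter. The neuronal values rest on 6, 9, 20 and 10 UMIs in the 4 libraries, and the microglial markers in those neurons were at 26.2, 35.2, 49.7 and 42.1 CPM. At the ratio it has to those markers in microglia, Itgam would have been at 0.631, 1.01, 1.04 and 0.905 CPM in the neurons, above each measured level.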

How the results depend on the processing

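The log2 ratio of C4b at 6 over 3 months in oligodendrocytes (3.52) was 3.43 under TMM scaling, 3.54 with a stricter gate and 3.32 to 3.72 without 1 library. Counts of genes called at 6 against 3 months moved by over 1.5 times. Of these counts, DESeq2 gave 3 in OPCs, 49 in excitatory and 2 in inhibitory neurons and 37 in oligodendrocytes, against 1, 0, 0 and 15. Without a filter on low counts there were 123 in microglia, 15 in astrocytes, 11 in OPCs, 7 in excitatory and 34 in inhibitory neurons and 159 in oligodendrocytes. A stricter gate gave 5 in microglia, 1 in astrocytes, 0 in OPCs and 6 in oligodendrocytes. With the replicate number as a block, that is with the labelled batches paired, there were 5 in astrocytes, 0 in OPCs, 8 in excitatory and 2 in inhibitory neurons, 78 in oligodendrocytes and 14 in microglia. In the age comparisons the block changed no other call of a member than that of C4b in excitatory neurons. The crossed pairing, chosen after seeing the data, gave 28 calls in excitatory neurons.

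Leaving out 1 library gave 14 to 809 calls in microglia, 0 to 15 in astrocytes, 3 to 108 in OPCs, 11 to 1581 in excitatory neurons, 7 to 1259 in inhibitory neurons and 31 to 363 in oligodendrocytes; the highest count was without 3M-2 in all but astrocytes, and the lone library was assumed to vary like the others. For DAM-gated against other microglia 816 genes were called, 336 with DESeq2, 361 with no replicate block (libraries unpaired) and 480 to 685 without 1 library. For oligodendrocytes against OPCs DESeq2 called 2614 genes in place of 5176, and leaving out a library was not run, since it leaves 1 sum per type.

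The sign turned for C3ar1 in microglia without 3M-2 (-0.06) and without 6M-1 (-0.13), and leaving out 1 library gave -0.13 to 0.24. In excitatory neurons C3ar1 (0.0080) turned to -0.0038 with DESeq2 and to -0.018 without a filter, and it lay between -0.17 and 0.14 without 1 library (-0.02 without 3M-1, -0.17 without 6M-2). Cd59a there lay between -0.54 (without 6M-1) and 1.08. Over the member differences and alternatives 240 kept direction and side of the threshold, 16 newly passed, 25 were lost and 7 turned. This tally includes C4b in comparisons that hold its oligodendrocyte values. It also includes members that entered a fit through a single group, so it does not measure how stable the members are. Depth limits C3, Serping1 and all astrocyte values.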
